A study of Mus musculus with 36 samples.

Results

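Fetal mouse neural stem cells (NSCs) that had been held for 5 days in 120 mg/dL ethanol, the lower of the study's ethanol doses, were compared with sister flasks held without ethanol. The comparison took every cell library at 120 mg/dL and every control cell library, 12 of the 36 libraries of the series: 6 cultures, each read once at 0 mg/dL and once at 120 mg/dL. The remaining libraries were the same 6 cultures at 320 mg/dL and the extracellular vesicles (EVs) that the cells had released at each dose. The cells came from C57BL/6J mice labelled wild type (the study's methods add the Ai14 reporter strain), from the dorsal telencephalon at gestational day 12.5, and tissue was pooled by sex within a pregnancy. Cultures are named here by pregnancy set and sex (3F, 4F, 5F, 3M, 4M, 5M), so that 3 cultures were female and 3 male, and the female and male culture of a set shared a pregnancy. They grew as floating neurospheres in serum-free medium with mitogens, were used at passages 7 to 10, and 4 flasks made 1 sample. Control and ethanol flasks alike were tightly capped and had their medium replaced on day 3. Because tissue had been pooled and expanded, a culture stands for a cell population from a pregnancy and not for a single embryo, and it holds no blood vessels, meninges or maternal metabolism.

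NSCs of the dorsal telencephalon line the ventricle of the fetal forebrain, divide under FGF and EGF signals, and give rise to intermediate progenitors, neurons and, later, glia. Notch signals through Hes genes hold them in the stem cell state, whereas proneural genes, Dcx and neuronal transcription factors accompany differentiation. Ethanol is a teratogen of this tissue; cells break it down through alcohol dehydrogenases, catalase and aldehyde dehydrogenases, and oxidative stress, endoplasmic reticulum (ER) stress, cell cycle change, cholesterol metabolism and altered growth factor signalling are the responses most often discussed for it.

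The control libraries held 32583966 to 45390848 counts and the libraries at 120 mg/dL 26803735 to 55282322 counts. In the cells, 17 of 19 radial glia and NSC markers reached a mean of 1 CPM (counts scaled to library size, here with TMM factors), and their summed level was 5730 to 7140 CPM in the controls and 5590 to 6650 CPM at 120 mg/dL. The defining markers Sox2 and Sox1 were listed at 0 in every library; since B2m, which nearly all cells use, was listed at 0 too, nothing was read from these zeros. Markers of microglia (1.10 to 1.71 CPM summed in controls, 1.16 to 1.74 at 120 mg/dL), of endothelial, mural and fibroblast cells (2.73 to 5.84 and 2.68 to 6.11) and of erythroid cells (0.0515 to 0.244 and 0.0798 to 0.181) were near the floor, with 0 of 10, 0 of 10 and 0 of 7 genes at a mean of 1 CPM. In such bulk samples, fewer cells of a type and less RNA per cell cannot be told apart.

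The first question was which genes answered to the moderate dose. None did at the threshold used: with the culture as a block, 0 of 17792 genes tested (0%) passed a Benjamini-Hochberg adjusted p of 0.05 in edgeR's quasi-likelihood F test, and the lowest adjusted p was 0.9999. At an unadjusted p under 0.05 there were 444 genes (2.5%), of which 244 were higher (1.37%) and 200 lower (1.12%) at 120 mg/dL, and at an unadjusted p under 0.01 there were 62 (0.348%). An even spread of p over 20 bins would put 889.6 genes in each bin, so the lowest bin held fewer genes than that. Limma-voom also called 0 genes (494 at an unadjusted p under 0.05), and DESeq2 called 4 (468), which are given with the genes of unstable level below. Over all genes 8037 log2 fold changes were above 0 (45.2%) and 9755 below (54.8%), the shares against which the counts of list members above and below 0 are to be read. Counts of list members at an unadjusted p under 0.05 are likewise to be read against the 2.5% of all genes. The same direction in all 6 cultures was seen for 495 genes (2.78%), 191 of them higher (1.07%) and 304 lower (1.71%).

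**Figure D1:**
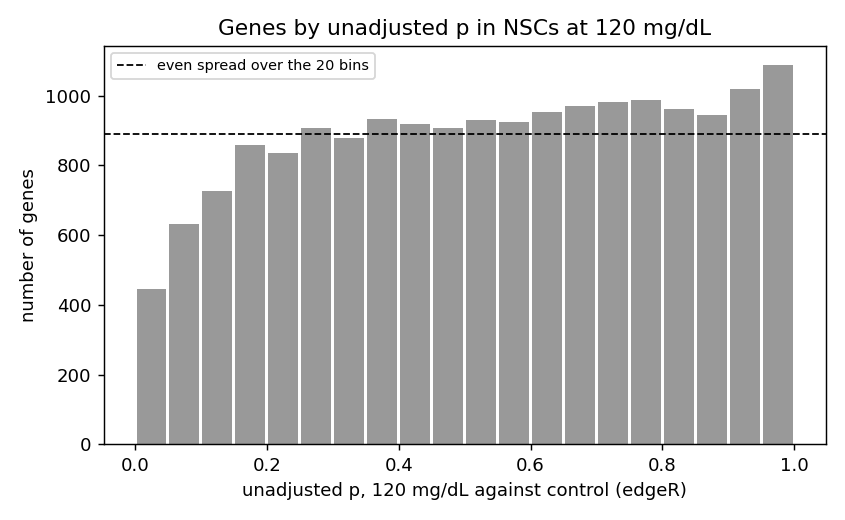
Number of the 17792 genes (y axis) in each of 20 bins of unadjusted p (x axis) for NSCs at 120 mg/dL against control. The bin nearest 0 holds 444 genes, under the dashed line of an even spread at 889.6.

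A call of 0 has a precision behind it, which these libraries allow to be stated. Of the 13592 genes with a mean of at least 1 CPM, 13241 (97.4%) had a 95% confidence interval of the fold change that lay wholly within 2-fold in either direction, 11971 (88.1%) within 1.5-fold and 7572 (55.7%) within 1.25-fold. The median size of the log2 fold change over all genes was 0.078, against a median standard error of 0.13. A change of 2-fold thus lay outside the measured interval for nearly all genes at this level, and a change of 1.25-fold for 55.7% of them.

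The genes with the smallest unadjusted p, among those at 1 CPM or more with 1 direction in all 6 cultures, are described as the leading edge of the comparison, not as changed genes. On the higher side these were Csrnp3, Myt1l, Rnf128, B3gnt5 and Egr1. Csrnp3, a nuclear transcriptional activator (GRCm39 chromosome 2, 65676080 to 65861890, plus strand), read 5.53 CPM at the lowest, 10.99 at the median and 20.2 at the highest in the controls and 7.98, 14.6 and 29.3 at 120 mg/dL. Every culture stood above its own control although the groups overlapped, and the log2 fold change was 0.43 with a standard error of 0.10 (unadjusted p = 0.001031, adjusted p = 0.9999, edgeR). Myt1l, a zinc finger factor that represses non-neuronal genes in neurons (chromosome 12, 29578009 to 29973213, plus strand), read 1.75, 2.03 and 3.82 CPM in the controls and 2.23, 2.58 and 4.98 CPM at 120 mg/dL, a log2 fold change of 0.37 with a standard error of 0.09. Its highest reading at both doses was culture 5F.

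Rnf128, a transmembrane ubiquitin ligase (chromosome X, 138463952 to 138574139, plus strand), read 2.32, 2.98 and 3.50 CPM in the controls and 2.52, 4.12 and 4.83 CPM at 120 mg/dL, a log2 fold change of 0.37 with a standard error of 0.09. B3gnt5, the enzyme that starts the lacto-series of glycosphingolipids on lactosylceramide (chromosome 16, 19578948 to 19591507, plus strand), read 30.6, 45.1 and 68.8 CPM in the controls and 37.9, 66.0 and 87.3 CPM at 120 mg/dL, a log2 fold change of 0.37 with a standard error of 0.10 and a 95% interval from 0.17 to 0.58. In culture 3M it differed least (68.8 against 71.8 CPM) and in 5F most (39.3 against 60.3 CPM).

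On the lower side stood Trf, Gm38414, Gm20125, Gpr15 and Rpap3. Trf encodes transferrin, which carries iron to cells (chromosome 9, 103081200 to 103107814, minus strand), and it had the smallest p of all genes. It read 19.4, 23.7 and 50.9 CPM in the controls and 15.5, 18.6 and 44.5 CPM at 120 mg/dL, and the log2 fold change was -0.32 with a standard error of 0.07 and a 95% interval from -0.48 to -0.17 (unadjusted p = 0.0005677, adjusted p = 0.9999, edgeR). Culture 3F held the highest Trf level at either dose, and the groups overlapped. Gpr15, a chemoattractant receptor known from lymphocytes (chromosome 16, 58537796 to 58539433, minus strand), read 1.82, 4.55 and 6.99 CPM in the controls and 1.21, 3.43 and 5.65 CPM at 120 mg/dL, a log2 fold change of -0.38 with a standard error of 0.11. Rpap3, a co-chaperone that links HSP90 to the assembly of RNA polymerases (chromosome 15, 97572977 to 97603725, minus strand), read 17.1, 20.1 and 26.5 CPM in the controls and 13.7, 18.5 and 22.4 CPM at 120 mg/dL, a log2 fold change of -0.19 with a standard error of 0.05.

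The remaining lower genes were long noncoding RNAs. Gm38414 (chromosome 8, 36623010 to 36636011, plus strand) read 1.12 to 1.69 CPM in the controls and 0.678 to 1.06 CPM at 120 mg/dL, so that the groups did not overlap, with a log2 fold change of -0.65 and a standard error of 0.17. Among the leading genes it was the lowest in level. Gm20125 (chromosome 10, 16780296 to 16971555, minus strand) behaved differently from the others: its control readings were 272 CPM in 3F, 423 in 4F, 227 in 5F, 1.78 in 3M, 2.30 in 4M and 73.6 in 5M, and at 120 mg/dL the same cultures read 3.12, 378, 2.39, 1.42, 1.92 and 2.54 CPM. The log2 fold change of -3.99 (standard error 1.08) thus rests on cultures 3F, 5F and 5M, and the transcript was at about 2 CPM in 3M and 4M with or without ethanol. Without the level and direction conditions, Rab44 (log2 fold change 1.04, 0.476 CPM on average), A730060N03Rik (-1.18, 0.440 CPM) and Gm46626 (-0.57, 0.540 CPM) would have stood among the leading genes.

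**Figure D2:**
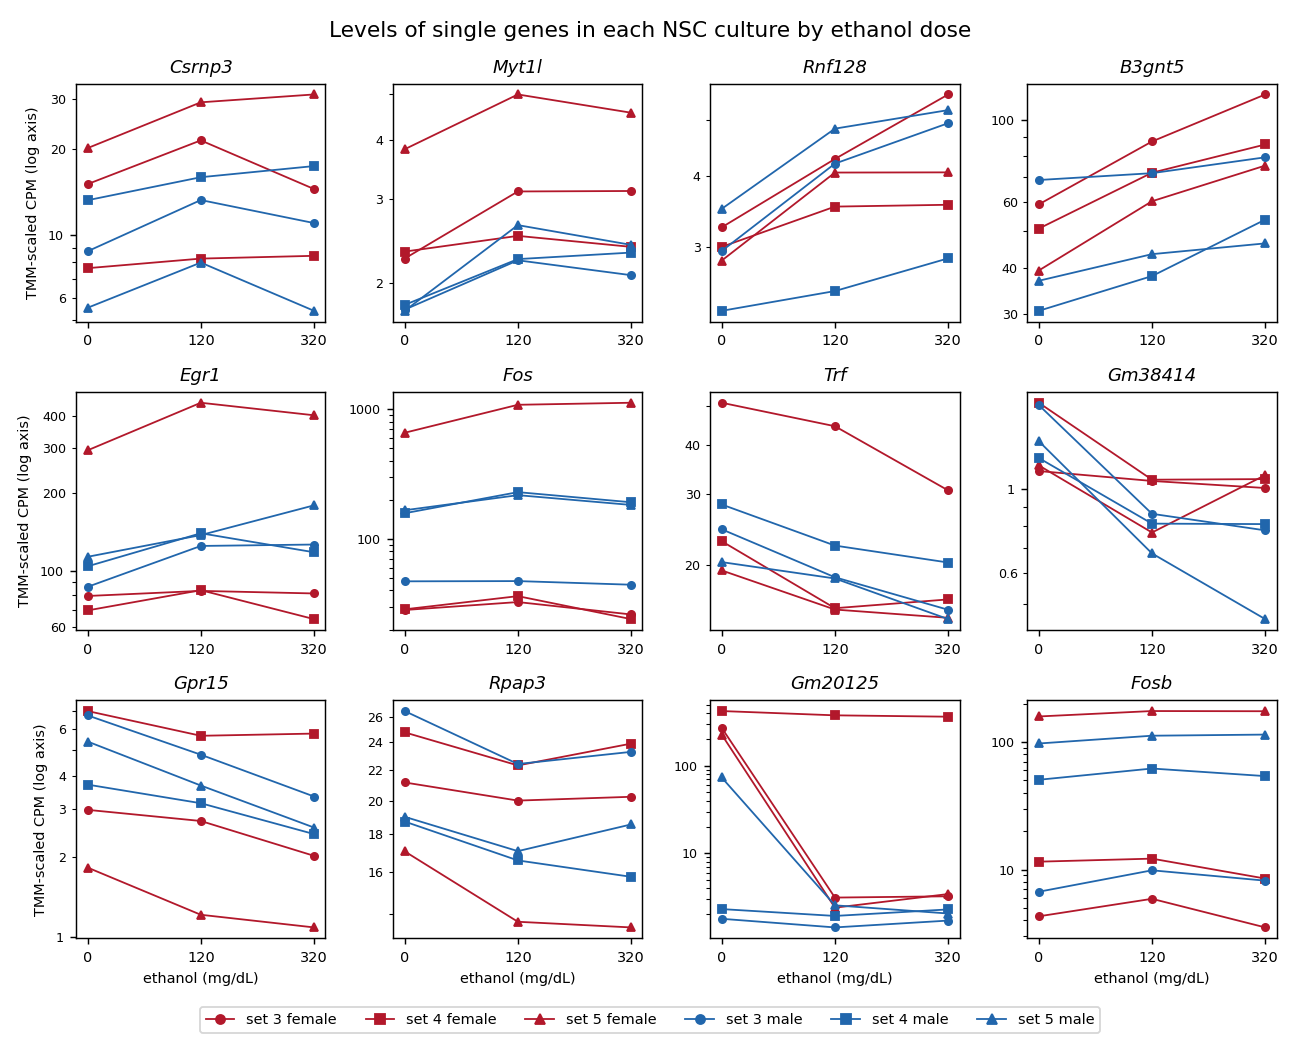
TMM-scaled CPM (y axes, log scale) of 12 genes in each NSC culture at 0, 120 and 320 mg/dL ethanol (x axes); each line is 1 culture, red female and blue male. All 6 lines of Csrnp3, Myt1l, Rnf128, B3gnt5, Egr1, Fos and Fosb go up from 0 to 120 mg/dL and all 6 of Trf, Gm38414, Gpr15, Rpap3 and Gm20125 go down, and the distances between cultures are mostly larger than these steps. The Fos line of 3M is nearly level from 0 to 120 mg/dL (47.07 and 47.27 CPM).

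Immediate early genes are switched on within minutes by growth factors, calcium or stress, and Fos and Egr1 are the usual markers of the class. Of 21 tested members, 3 had an unadjusted p under 0.05, all higher (Egr1, Fos and Fosb), where 1.37% of all genes were higher at that p. The log2 fold change was above 0 for 10 of the 21 and below it for 11, with a median of -0.0015 against -0.013 over all genes. Egr1 read 69.9, 95.1 and 295 CPM in the controls (lowest, median and highest) and 83.3, 131 and 452 CPM at 120 mg/dL, a log2 fold change of 0.36 with a standard error of 0.10 (unadjusted p = 0.003446, edgeR). Fos read 28.3, 102 and 659 CPM in the controls and 32.6, 132 and 1083 CPM at 120 mg/dL, a log2 fold change of 0.36 with a standard error of 0.11 (unadjusted p = 0.006161). Fosb read 4.31, 31.1 and 159 CPM in the controls and 5.91, 37.1 and 175 CPM at 120 mg/dL, a log2 fold change of 0.28 with a standard error of 0.10 (unadjusted p = 0.01331). All 3 were higher in 6 of 6 cultures without passing the adjusted threshold, and culture 5F carried the highest level of each at both doses. Fos in 3M was nearly level, at 47.07 CPM in the control and 47.27 CPM at 120 mg/dL (log2 difference 0.0061). Control Fos alone ranged from 28.3 to 659 CPM, so the cultures differed from each other by far more than any culture differed from its own ethanol flasks.

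Because Fos and Fosb were higher at 120 mg/dL in every culture (Fos in 3M by a log2 difference of 0.0061 only), their promoters are shown. The windows run from 250 bases before to 50 after the RefSeq start (build GRCm38.p6, other than the GRCm39 gene positions given above). TGACG, the core letters of the cAMP response element, is in capitals. The Fos window is chr12:85473640-85473939 on the plus strand and the Fosb window chr7:19309996-19310295 on the minus strand; Egr1 was not in the promoter table.
Fos: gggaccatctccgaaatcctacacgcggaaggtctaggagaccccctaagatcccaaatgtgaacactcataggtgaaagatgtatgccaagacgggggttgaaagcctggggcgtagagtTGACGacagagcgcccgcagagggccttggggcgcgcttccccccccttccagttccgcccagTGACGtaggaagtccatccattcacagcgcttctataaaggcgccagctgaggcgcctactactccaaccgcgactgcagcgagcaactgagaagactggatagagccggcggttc
Fosb: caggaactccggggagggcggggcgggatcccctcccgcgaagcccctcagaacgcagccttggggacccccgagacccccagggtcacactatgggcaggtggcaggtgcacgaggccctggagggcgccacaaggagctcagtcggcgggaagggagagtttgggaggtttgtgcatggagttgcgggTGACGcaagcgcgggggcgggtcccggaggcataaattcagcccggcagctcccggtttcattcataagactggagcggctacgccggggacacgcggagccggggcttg
Searched on both strands (TGACG and CGTCA), the letters stand at -129 and -66 from the start of Fos and at -60 from that of Fosb. Counted by gene, they occur in any promoter of 10 of the 16 tested immediate early genes with a promoter in the table. Counted by single promoter, they occur in 6837 of all 32851 promoters of this length (20.8%). A gene with several promoters has more chances of a match, so these shares are in unlike units and were not compared. The match describes the letters only.

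The stem cell state and the lineages that NSCs enter were described with marker lists, none of which had a member past the adjusted threshold. Of 17 tested NSC markers, 9 were above 0 and 8 below, with a median log2 fold change of 0.036. Nes, the intermediate filament nestin of neural progenitors, had the smallest p of the list at -0.25 with a standard error of 0.12 (unadjusted p = 0.05208, lower in 5 of 6 cultures; -0.12 without culture 5F), and it read 195, 367 and 546 CPM in the controls and 104, 334 and 470 CPM at 120 mg/dL. Vim, a filament protein of radial glia, was at -0.13 (standard error 0.07), Pax6, the dorsal progenitor factor, at 0.061 (0.097), Hes1 at -0.15 (0.08) and Hes5 at 0.16 (0.14). These NSC genes thus stood on both sides of 0.

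Among intermediate progenitor and proneural markers 10 of 12 were above 0, with a median of 0.064. The list's median difference was above 0 in 2 of 6 cultures, 5F (0.449) and 5M (0.12), and ran from -0.0715 (3F) to -9.8e-05 (4M) in the others. Dcx, the microtubule protein doublecortin of young neurons, was higher in 6 of 6 cultures (log2 fold change 0.37, standard error 0.15, unadjusted p = 0.02615, edgeR). Its difference ran from 0.025 in 3F and 0.036 in 4F to 1 in 5F, and the log2 fold change was 0.25 without culture 5F. Dcx read 1.64, 7.01 and 10.5 CPM in the controls and 1.93, 9.21 and 17.6 CPM at 120 mg/dL. The 15 neuron markers had a median of 0.053, with 0 at an unadjusted p under 0.05 (Syt1, the calcium sensor of synaptic vesicles, was first at 0.20 with a standard error of 0.14). Of 9 astrocyte markers 2 had an unadjusted p under 0.05, against 2.5% of all genes. Both were higher in 5 of 6 cultures: the gap junction gene Gja1 (0.23, standard error 0.09) and the filament gene Gfap (0.30, standard error 0.14). The Gfap level spread from 13.1 to 276 CPM over the controls and from 26.3 to 261 CPM at 120 mg/dL, which is far more than its difference by dose. Pdgfra, the receptor that marks oligodendrocyte precursors, was at 0.32 (standard error 0.15, unadjusted p = 0.04971) in a list of 9 whose median was -0.0055. Summed astrocyte marker levels overlapped widely (718 to 3540 CPM in the controls and 882 to 3550 at 120 mg/dL), and so did those of neurons (725 to 1480 and 747 to 1440), intermediate progenitors (136 to 261 and 129 to 403) and the oligodendrocyte lineage (445 to 836 and 516 to 721).

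Of 20 genes that break down ethanol and acetaldehyde 14 were tested, with 0 at an unadjusted p under 0.05 and a median log2 fold change of -0.048. The classical ethanol enzymes were too low to test: Adh1 had at most 4 counts in a library, Adh4 at most 5, Adh7 at most 3 and Cyp2e1 at most 2, and Aldh1a2 and Aldh3a1 were left out for the same reason. Catalase (Cat), which can oxidise ethanol with hydrogen peroxide, was lower in 6 of 6 cultures at -0.12 (standard error 0.06, unadjusted p = 0.06812), at 55.7, 69.0 and 110 CPM in the controls and 51.3, 66.4 and 92.9 CPM at 120 mg/dL. Aldh2, the mitochondrial enzyme that clears acetaldehyde, was at -0.057 (0.070) and Adh5, the alcohol dehydrogenase that is expressed in all tissues, at 0.060 (0.11). The 95% interval for Aldh2, from -0.21 to 0.094, leaves out a change of 1.25-fold in either direction.

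The antioxidant list was also on the low side without a called member: 16 of 22 genes under NRF2 control or in glutathione and peroxide defence were below 0, the median was -0.045, and the list's median difference was below 0 in each of the 6 cultures (-0.13 to -0.014). In 3F, however, the list (-0.026) stood above the median of all genes tested (-0.068), while in the other cultures it stood below that median. Nfe2l2, the gene of NRF2 itself, was lower in 6 of 6 cultures at -0.18 (standard error 0.09), but at -0.055 without culture 5F. Gclm, a subunit of the enzyme that limits glutathione synthesis, was at -0.17 (0.07, unadjusted p = 0.04153), the haem-degrading Hmox1 at -0.20 (0.18) and the quinone reductase Nqo1 at -0.12 (0.11). The median was -0.097 when libraries were scaled by their totals in place of TMM.

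ER chaperones and unfolded protein response genes all pointed 1 way in the fit: 21 of 21 tested members were below 0, with a median of -0.11. An unadjusted p under 0.05 was reached by 2 of them, against 2.5% of all genes: Dnajb11, a cochaperone of BiP (-0.20, standard error 0.09), and Calr, the calcium-binding lectin calreticulin (-0.14, 0.07). Hspa5, which encodes BiP, the leading chaperone of the compartment, was at -0.14 (0.15) and the transcription factor Xbp1 at -0.17 (0.11). The cultures did not share this: the list's median difference was -0.47 in 5F, -0.29 in 4F and -0.16 in 5M, but 0.051 in 3F, 0.044 in 3M and 0.073 in 4M. The integrated stress response list had a median of 0.011 with 11 of 20 members above 0, and the heat shock list a median of -0.028 with 13 of 19 below 0; in neither did a member reach an unadjusted p under 0.05.

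Genes of G2 and mitosis were mostly above 0. Of 28 G2 and mitosis genes 25 were above 0, with a median of 0.096, and 0 had an unadjusted p under 0.05. The list's median difference was positive in 5 of 6 cultures, from 0.0585 in 3F to 0.335 in 5F, but -0.334 in 3M. The mitotic checkpoint kinase Ttk came first at 0.19 (standard error 0.11), followed in role by Top2a, the topoisomerase that untangles chromosomes (0.095, 0.11), and Mki67, the proliferation antigen Ki-67 (0.045, 0.10). The 33 S phase and replication genes had a median of 0.024, with Rrm1, the large subunit of ribonucleotide reductase, at 0.12 (0.10). Ccnd1, the cyclin that carries mitogen signals into the cell cycle, was lower in 6 of 6 cultures at -0.25 (0.13; -0.12 without culture 5F), with 219 to 857 CPM in the controls and 121 to 746 CPM at 120 mg/dL.

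Replication-dependent histone genes, whose transcripts are made in S phase and end without a poly(A) tail, showed the highest list median among the 38 lists with tested genes. Of 44 tested histone genes 41 were above 0, the median log2 fold change was 0.26, and 0 of 44 had an unadjusted p under 0.05. H2ac10 was first at 0.45 (standard error 0.21, unadjusted p = 0.05731), H3c4 at 0.38 (0.19) and the linker histone H1f1 at 0.34 (0.17). The list's median difference was 0.69 in 3F, 0.34 in 4F, 0.96 in 5F, 0.11 in 4M and 0.11 in 5M, but -0.71 in 3M. The summed share of the counts was 0.0394 to 0.535% in the controls and 0.0568 to 0.41% at 120 mg/dL, with a mean log2 ratio of 0.204 (SD 0.397, n = 6 cultures, 5 higher; exact sign-flip test, two-sided p = 0.2812, adjusted 0.9375 over 10 measures of the libraries, where 64 sign changes allow no p below 0.03125).

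Genes of p53 and cell death were near 0 or slightly low. Of 24 p53 genes 18 were below 0 (median -0.053) and 2 had an unadjusted p under 0.05, against 2.5% of all genes: Cdkn1a, the cyclin-dependent kinase inhibitor p21 and best known p53 target (-0.21, standard error 0.07, unadjusted p = 0.01064, lower in 5 of 6 cultures), and Trp53, which encodes p53 (-0.15, 0.05, unadjusted p = 0.01529, lower in 6 of 6). Cdkn1a read 28.4, 64.03 and 83.1 CPM in the controls and 27.0, 54.6 and 74.6 CPM at 120 mg/dL. Mdm2, the ubiquitin ligase that degrades p53 and is its target, was at -0.061 (0.11). In the BCL2 family the median was 0.0021 over 12 genes, and Hrk, a death-promoting BH3-only member of neurons, was higher in 6 of 6 cultures at 0.34 (0.13) from a low level of 0.493 to 1.69 CPM in the controls.

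FGF and EGF signalling, on which these cultures depend, was mostly below 0: 20 of 24 genes, with a median of -0.11. Spry1, a feedback inhibitor that FGF signals induce, had the only unadjusted p under 0.05 (-0.22, standard error 0.10, unadjusted p = 0.04134), at 59.6, 77.9 and 128 CPM in the controls and 51.0, 67.5 and 97.4 CPM at 120 mg/dL. Its relative Spry2 was at -0.091 (0.074), the ERK phosphatase Dusp6 at -0.089 (0.098; -0.019 without culture 5F) and Myc at -0.20 (0.11; -0.063 without culture 5F). The list's median difference was -0.26 in 3F, -0.19 in 4F and -0.36 in 5F but 0.15 in 3M, -0.010 in 4M and 0.060 in 5M.

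The other developmental pathways held 0 members at an unadjusted p under 0.05. Their medians were -0.045 for Notch (20 genes), -0.040 for Wnt (27), -0.051 for Sonic hedgehog (12), 0.010 for BMP and Id genes (20) and -0.042 for retinoic acid (12). Members with the smallest p were Hes1 for Notch and Ccnd1 for Wnt, both given above, Id2, an inhibitor of differentiation, at 0.26 (0.17), and Rdh10, which makes retinaldehyde, at 0.067 (0.077).

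Interferon response genes had the lowest list median, -0.18, with 23 of 24 tested members below 0. Only Bst2, the membrane tether of viruses (-0.46, standard error 0.16, unadjusted p = 0.009935), and Usp18, which removes ISG15 from proteins (-0.61, 0.22, unadjusted p = 0.01432), had an unadjusted p under 0.05, and both were expressed below 1 CPM on average. Over all genes 2.5% had such a p. Nmi, an interferon-induced partner of STAT proteins that the study singles out, was at -0.033 with a standard error of 0.16, higher in 4 of 6 cultures, at 2.95, 4.65 and 7.36 CPM in the controls and 3.73, 4.58 and 5.26 CPM at 120 mg/dL. The study names it for a shift from cells into EVs at this dose, and that EV-to-cell ratio was not tested here. The list's median difference ran from -0.49 in 3M and -0.39 in 4F to 0.12 in 3F.

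Splicing factors were mostly on the low side, by small amounts. Of 55 spliceosome, SR and hnRNP genes 49 were below 0, the median was -0.063, and 4 had an unadjusted p under 0.05, all lower: the helicase Ddx46 (-0.15, standard error 0.05, lower in 6 of 6 cultures), Srsf6 (-0.13, 0.05), Sf3a2 (-0.16, 0.06) and Srsf2 (-0.18, 0.08). That is 4 of 55 members against 2.5% of all genes, and 0 of 55 at the adjusted threshold. Ddx46 read 63.4, 81.4 and 95.4 CPM in the controls and 56.1, 75.4 and 78.9 CPM at 120 mg/dL. The list median was below 0 in 5 of 6 cultures (-0.12 to -0.018) and 0.032 in 3F. In the DNA methylation list (21 genes, median -0.061), Mbd3, a subunit of the NuRD repressor complex, had the only unadjusted p under 0.05 (-0.27, 0.12).

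Among lipid genes, cholesterol synthesis was on the high side by small amounts. Of 25 genes of the pathway 20 were above 0, with a median of 0.085 and 0 at an unadjusted p under 0.05. The sterol reductase Tm7sf2 came first at 0.11 (standard error 0.06), and Fdft1, which makes squalene, was at 0.15 (0.08). The median was positive in 5 of 6 cultures, 0.045 to 0.18, and -0.17 in 3M. Fatty acid synthesis had a median of 0.0047 over 14 genes, led by the desaturase Fads2 (0.13, 0.07), and cholesterol efflux -0.034 over 9 genes, led by the lysosomal transporter Npc1 (-0.11, 0.09).

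Energy metabolism, zinc and iron genes gave 1 member at an unadjusted p under 0.05, Trf. Glycolysis and hypoxia genes had a median of -0.0022 over 25 genes (Pfkp, a phosphofructokinase, at -0.15 with a standard error of 0.10), nuclear-coded oxidative phosphorylation 0.024 over 63 genes (Sdha, of complex II, at -0.075 with 0.063) and ribosomal proteins 0.0071 over 75 genes (Rpl8 at -0.080 with 0.090). All 10 tested mitochondrially encoded genes were above 0, with a median of 0.075, of which ND5, of complex I, was first at 0.11 (0.12). The cultures did not share this direction. The median difference of these genes was 0.454 in 3F, 0.15 in 4F, 0.379 in 5F and 0.0382 in 4M, but -0.25 in 3M and -0.232 in 5M. The metallothioneins Mt1 and Mt2, which bind zinc, were at 0.11 (0.18) and 0.22 (0.25).

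Of 21 genes for GABA and glutamate receptors 13 were above 0 (median 0.066), and 2 had an unadjusted p under 0.05, against 2.5% of all genes: Grik2, a kainate receptor subunit (0.28, standard error 0.11, higher in 5 of 6 cultures), and Gabbr2, the GABA-B subunit that couples to G proteins (0.24, 0.11, higher in 6 of 6). Gabbr1, which binds GABA, was at 0.14 (0.11). Kctd12 and Kctd16, auxiliary GABA-B subunits that the study also names, were at -0.087 (0.10) and -0.084 (0.23), with Kctd16 at 0.516 to 2.50 CPM in the controls and 0.654 to 2.27 CPM at 120 mg/dL. The study names them for enrichment in EVs, Kctd16 at both doses and Kctd12 at the high dose. In the EVs at 120 mg/dL Kctd12 was at 0.11 (0.15) and Kctd16 at 0.55 (0.27), neither past the adjusted threshold. The EV-to-cell ratio was not tested here. Extracellular matrix genes had a median of -0.033 over 35 genes with 0 at an unadjusted p under 0.05, where the collagen gene Col9a3 was lower in 6 of 6 cultures at -0.17 (0.08). Vesicle biogenesis genes had a median of -0.011 over 23 genes, with the membrane scaffold Flot1 lower in 6 of 6 cultures at -0.13 (0.06, unadjusted p = 0.04332) and Pdcd6ip, the ESCRT partner ALIX, at -0.16 (0.09).

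**Figure D3:**
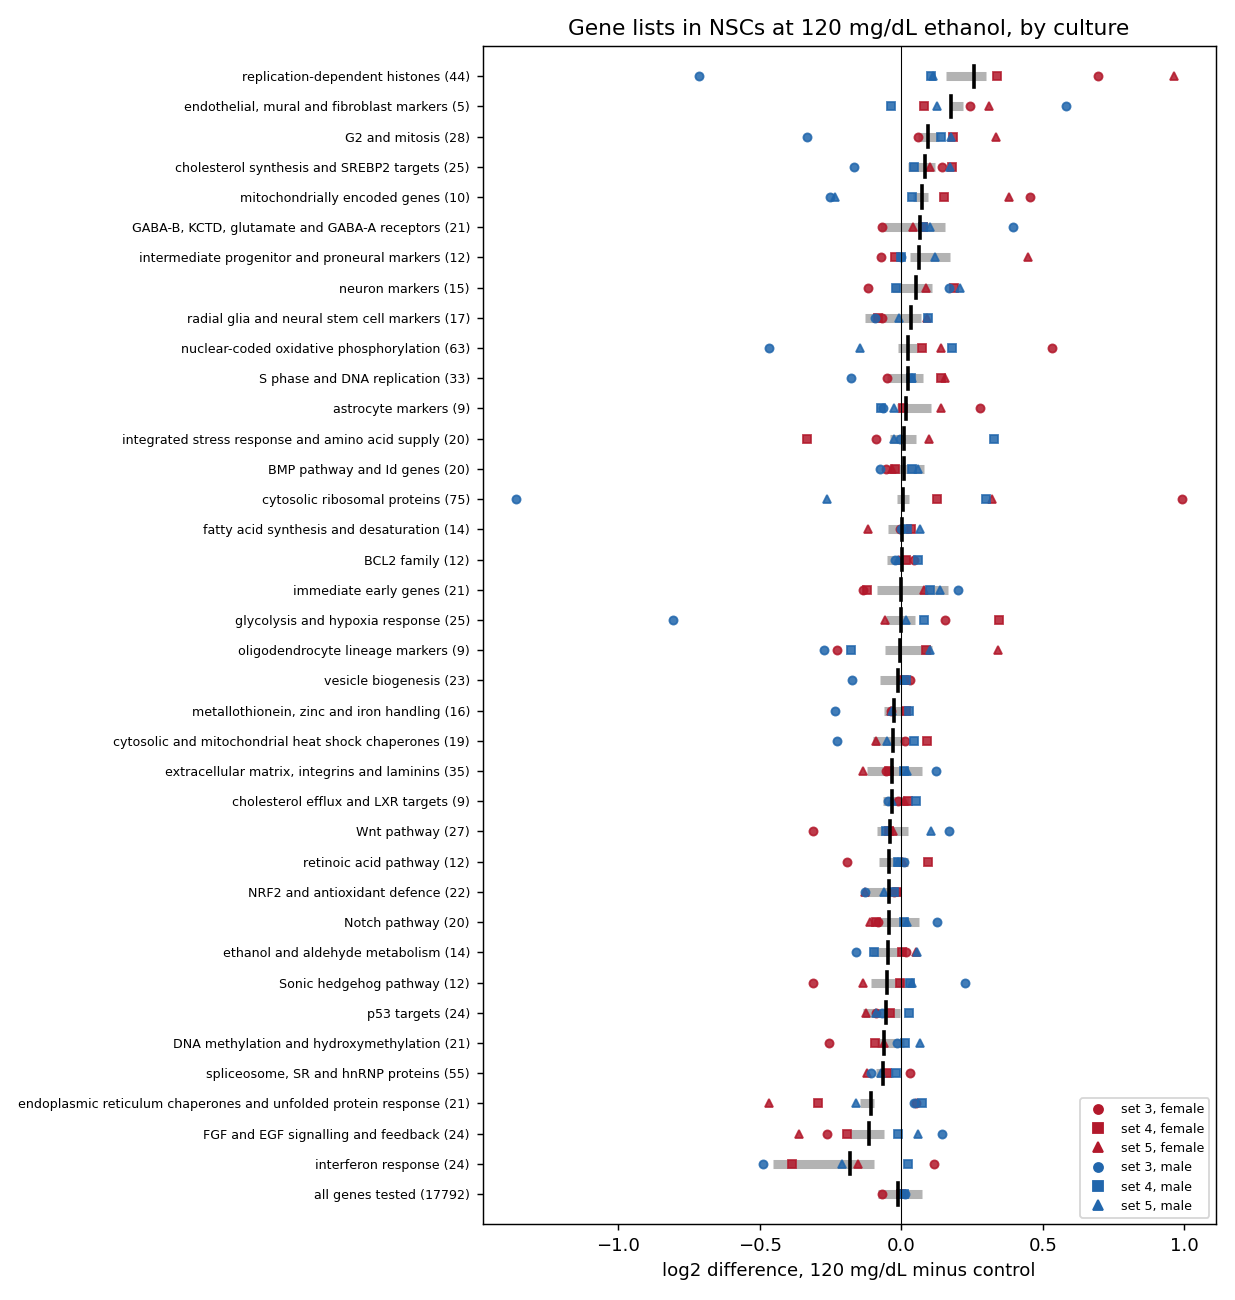
Gene lists in NSCs (rows, with the number of genes tested; lists with at least 5) and their log2 difference, 120 mg/dL minus control (x axis). Black bars are the median over genes of the fitted log2 fold change, grey bars the quartiles over genes, and each symbol is 1 culture's median difference. Histones have the highest median (0.26) and the interferon response lowest (-0.18), and single cultures, above all 3F and 3M, spread more widely than the lists' medians.

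How far the cultures went with each other is part of the result. Over 13615 genes the 120 mg/dL minus control differences of 2 cultures were related with Spearman's rho from -0.63 (3F with 3M, of the same pregnancy set) to 0.32 (3F with 5F); genes of 1 library share its depth and preparation, so these values are descriptions. Ribosomal protein genes showed the widest split, with a median difference of 0.99 in 3F, 0.13 in 4F, 0.32 in 5F, -1.36 in 3M, 0.30 in 4M and -0.26 in 5M around a fitted median of 0.0071. The histone genes, given above, came next in range, then the glycolysis genes, at -0.81 in 3M against -0.057 to 0.34 in the others. Oxidative phosphorylation genes were at 0.53 in 3F, 0.074 in 4F, 0.14 in 5F, -0.47 in 3M, 0.18 in 4M and -0.15 in 5M.

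In each culture the difference of a gene was also related to the length of its longest annotated transcript (12909 genes, 94.8% of those at this level): rho was -0.33 in 3F, -0.071 in 4F, -0.19 in 5F, 0.37 in 3M, -0.14 in 4M and 0.12 in 5M. Of the 4 lists just named, 3 hold short transcripts, with a median of 586 bases for histones, 2040 for ribosomal proteins and 2527 for oxidative phosphorylation (51 of 63 genes matched), against 4070 over all genes; the glycolysis list, at 4069 bases, does not. RNA classes moved with the same libraries: the share of counts on small nucleolar and Cajal body RNAs was 0.327% at 120 mg/dL in 3F against 0.146 to 0.195% in the controls, and mitochondrial rRNAs took 19.8 to 31.8% in the controls and 25.2 to 30.7% at 120 mg/dL. The part of these measures in the list differences was not tested. With both cultures of set 3 left out, an alternative added after the data were seen, 0 genes were called and 930 had an unadjusted p under 0.05.

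**Figure D4:**
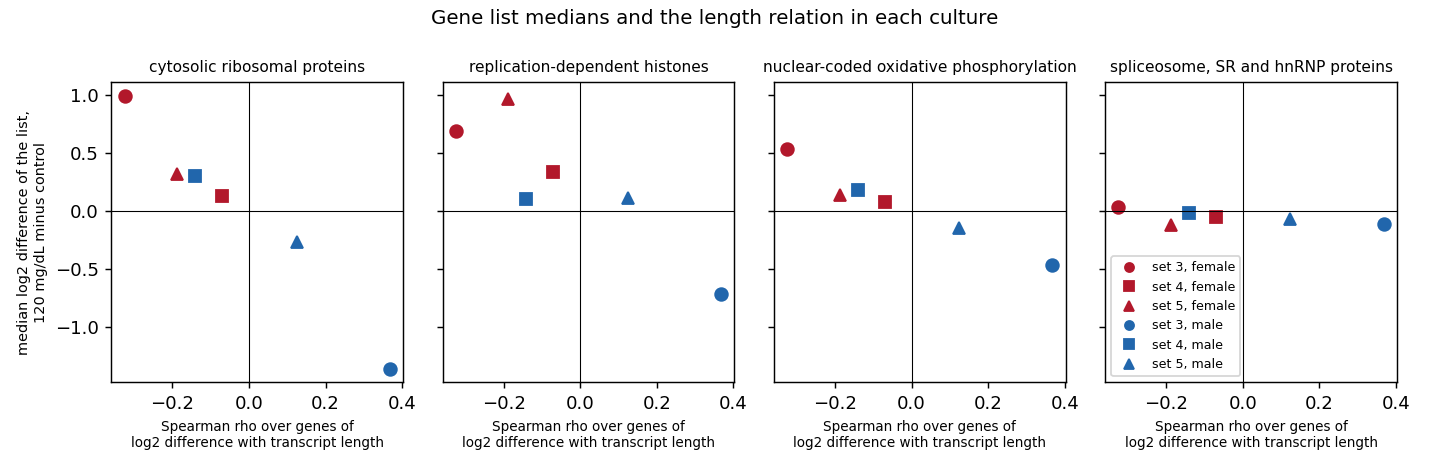
Median log2 difference of 4 gene lists (y axis, 120 mg/dL minus control) in each NSC culture against the Spearman correlation, over 12909 genes, of the log2 difference with transcript length in that culture (x axis). Ribosomal protein medians run from 0.99 in 3F, where rho is -0.33, to -1.36 in 3M, where rho is 0.37, while the splicing list stays between -0.12 and 0.032.

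The response of female and male cultures was compared with a dose by sex term. At 120 mg/dL 0 of 17792 genes (0%) differed between the sexes at an adjusted p of 0.05 (lowest adjusted p 0.5735, edgeR), and 1369 genes (7.69%) had an unadjusted p under 0.05. Spry1 was among these: its change was higher in males than in females by 0.49 on the log2 scale with a standard error of 0.13 (unadjusted p = 0.002514, adjusted p = 0.5735, edgeR). The differences, male minus female, were 0.30 (0.12) for Spry2, 0.48 (0.19) for Myc and 0.31 (0.12) for Cdkn1a, whereas they were -0.59 (0.21) for Gfap, -1.04 (0.34) for H2ac10 and -0.40 (0.17) for Ttk. In the count of calls DESeq2 gave 8 genes and the fit of the 12 libraries alone 2, as listed with the alternatives. The count at an unadjusted p under 0.05 depended on the libraries used. It was 2001 of 17360 genes in the 12 libraries alone and 462 of 17723 without set 3, against the 1369 above. Without set 3, an alternative added after the data were seen, which leaves 2 cultures per sex, 3 genes were called: Amer3, Katnal1 and Zc3h7a. Amer3 and Katnal1 are among the genes of unstable level described below. Each differed over 10-fold between control and 120 mg/dL in 3 cultures, most in 4F (log2 differences 7.42 and -5.3).

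The higher dose was set beside the moderate one for the genes already named; both share the control libraries, so the values stand side by side without a test of their likeness. At 320 mg/dL 7 genes passed the adjusted threshold (0.0393%; 4 higher and 3 lower; 93 with DESeq2, 0 without the culture block) and 1525 had an unadjusted p under 0.05 (8.57%), and 320 against 120 mg/dL gave 0 genes (0%), with 633 at an unadjusted p under 0.05 (3.56%; lowest adjusted p 0.9999). The 7 genes were Trf (log2 fold change -0.32 at 120 mg/dL and -0.54 at 320 mg/dL), Gpr15 (-0.38 and -0.71), the peroxidase gene Lpo (-0.50 and -0.999), B3gnt5 (0.37 and 0.67), Tm7sf2 (0.11 and 0.39), the secreted protease Htra1 (0.096 and 0.50) and Lingo1, of the Nogo receptor complex (0.16 and 0.43), each at an adjusted p of 0.04579 at 320 mg/dL (edgeR). The 7 were picked at 320 mg/dL and share their controls with 120 mg/dL, so that choice favours values of the same sign and nearer 0 at 120 mg/dL, and nothing was read from their order. At 120 mg/dL Trf, Gpr15, Lpo, B3gnt5 and Lingo1 were also on 1 side in 6 of 6 cultures. Fos was at 0.36 and 0.12, Fosb at 0.28 and 0.027 and Egr1 at 0.36 and 0.30 at 120 and 320 mg/dL; Egr1 was named for its small p at 120 mg/dL and the others for their role, with their values there known. The list medians at 120 and 320 mg/dL were 0.26 and 0.35 for histones, -0.18 and -0.21 for interferon genes, -0.11 and -0.17 for ER chaperones, 0.096 and 0.14 for mitosis, 0.085 and 0.11 for cholesterol synthesis, -0.063 and -0.11 for splicing and -0.11 and -0.068 for FGF and EGF signalling. Other lists had medians of opposite sign at the doses: 0.064 and -0.0099 for intermediate progenitor markers, 0.066 and -0.029 for GABA and glutamate receptors, -0.040 and 0.047 for Wnt, -0.033 and 0.031 for extracellular matrix, -0.028 and 0.028 for heat shock and -0.034 and 0.044 for cholesterol efflux. The sign also turned for the integrated stress response (0.0109 and -0.0637), astrocyte (0.018 and -0.0326) and microglia lists (0.126 and -0.0779). So it did for glycolysis and hypoxia (-0.0022 and 0.0426), immediate early genes (-0.0015 and 0.0202), the oligodendrocyte lineage (-0.0055 and 0.0023) and retinoic acid (-0.0419 and 0.0009).

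**Figure D5:**
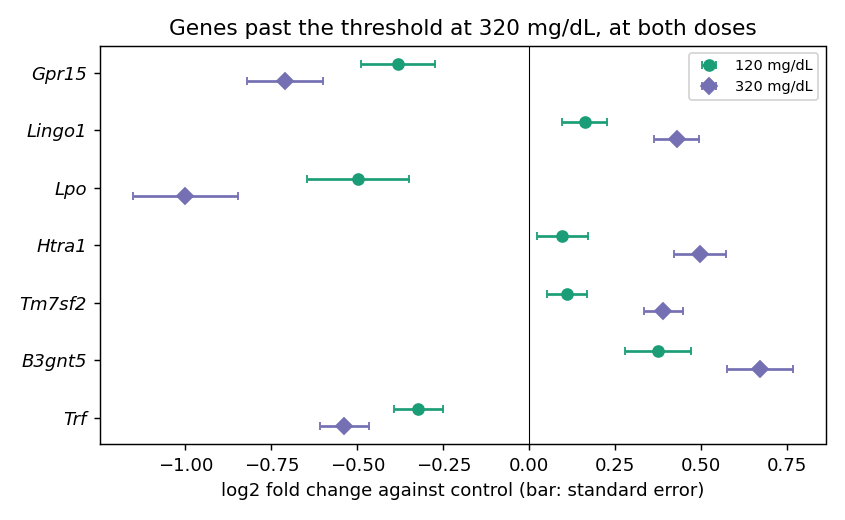
Log2 fold change against control (x axis; bars, standard error) at 120 mg/dL (circles) and 320 mg/dL (diamonds) for the 7 genes past the adjusted threshold at 320 mg/dL in NSCs. Every circle lies between 0 and its diamond, for example -0.32 and -0.54 for Trf; the genes were chosen at 320 mg/dL and the controls are shared, which favours this order.

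A small set of transcripts was nearly absent in some libraries and abundant in others of the same dose. Of the 13592 genes at 1 CPM or more, 108 (0.795%) differed over 10-fold between control and 120 mg/dL in at least 1 culture. Pamr1, a secreted protein of muscle regeneration, read 432 CPM in 3F, 0.304 in 4F, 297 in 5F, 0.305 in 3M, 0.342 in 4M and 0.849 in 5M in the controls, and 264, 169, 165, 60.5, 0.325 and 163 CPM at 120 mg/dL. It was thus much higher in 4F, 3M and 5M, lower in 3F and 5F and near 0 at both doses in 4M, and the log2 fold change was 5.51 with a standard error of 1.63 (unadjusted p = 0.004756, adjusted p = 0.9999, edgeR). The 4 genes that DESeq2 called were Pamr1 (6.15, adjusted p = 0.00145), Gm20125 (-4.12, adjusted p = 0.0206), Gm34152 (5.75) and Afp, the fetal serum protein alpha-fetoprotein (-2.70), the last pair at an adjusted p of 0.0482 and too low in counts for the edgeR test. Gnb1l and the metabotropic glutamate receptor gene Grm4 differed over 10-fold in 4 cultures each, with fitted log2 fold changes of 0.56 (standard error 2.40) and -2.71 (1.36). For Jag2, a Notch ligand, control cultures 5F and 4M read 33.1 and 24.7 CPM against 1.09 and 1.16 CPM at 120 mg/dL.

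In the EVs of the same cultures, 1 of 11880 genes (0.00842%) passed the adjusted threshold at 120 mg/dL, Cnnm3, a magnesium transport protein gene (log2 fold change 6.96, standard error 1.01, adjusted p = 0.04896, edgeR), and 744 had an unadjusted p under 0.05 (6.26%). In the cells Cnnm3 was at -0.33 (0.25). Of the leading cell genes, Trf was at -0.56 (0.20), Egr1 at 0.35 (0.13), B3gnt5 at 0.29 (0.25), Myt1l at 0.31 (0.28) and Csrnp3 at 0.16 (0.14) in the EVs, on the same side of 0 as in the cells, while Rpap3 at 0.19 (0.23) and Gm20125 at 0.185 (0.30) were on the other side, all without passing the adjusted threshold there.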

How the data were processed

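RNA was measured in 36 libraries, 18 from cells and 18 from EVs, of 6 cultures at 0, 120 and 320 mg/dL ethanol. Total RNA was depleted of ribosomal RNA and made into stranded libraries. The authors trimmed reads with Trimmomatic, aligned them to mm39 with STAR and deposited HTSeq counts per gene (40205 gene rows each); whether reads were counted by strand is not given in the sources used here, so overlapping and antisense genes, and near-identical copies such as histone and ribosomal protein genes, are uncertain. The submitters' processing notes also name DESeq2 2.11.40.6.

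The deposited counts of the 18 cell libraries were fitted with edgeR 4.0.16 in R 4.3.3 (TMM, filterByExpr by dose with a minimum count of 10 and minimum total of 15, quasi-likelihood F test, culture as a block), and a gene was called at a p, adjusted by Benjamini and Hochberg's method, of less than 0.05; the 18 EV libraries were fitted in the same way. Log2 fold changes are 120 mg/dL minus control with standard errors, and CPM are TMM-scaled. Single measures of a library were compared by an exact sign-flip test over cultures. DESeq2 1.42.0 and limma 3.58.1 were alternatives. The code was tested on simulated data.

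The block rests on the design, as each culture was split over the doses: deviations of a culture's libraries from their group means correlated at 0.601 to 0.826 (median 0.73, 13615 genes), and each of the 6 cultures correlated best with itself. The p-values measure the spread between 6 cultures from 3 pregnancy sets. No 2 libraries agreed within sampling noise, and library totals (26803735 to 55282322 over the 12 libraries) limit genes near 1 CPM or below.

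The comparison and the 39 gene lists (923 genes, 847 tested) were chosen with earlier results of these data known. The named genes were, by rule, up to 10 called genes per direction at a mean of 1 CPM or more with 1 direction in all 6 cultures or, where fewer than 5 were called, the 5 with the smallest p; the member with the smallest p in each list; Nmi, Kctd16 and Kctd12; and members with a leading role. The 1 CPM and 6-culture conditions were kept for the 5 with the smallest p, and the genes named for a difference over 10-fold, the other list members at an unadjusted p under 0.05 and the further histone, cholesterol and 320 mg/dL genes were chosen after their values were seen. Results for some genes that the rule would name are not reported here. Gene positions came from the GRCm39 annotation and promoters from RefSeq (GRCm38.p6).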

Additional observations from a re-analysis of the deposited data

Results flagged for a closer look

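A single library stood apart from the other 5 of its group, by Dixon's criterion at the 95% level, in 23 of 211 sets of 6 values checked (10.9%), where chance alone gives about 1 in 20. Culture 5F held the highest Egr1 level in the controls (295 CPM) and at 120 mg/dL (452 CPM), the highest control level of Myt1l (3.82 CPM), and the lowest level of Kctd12 in both groups (12.1 CPM in the control and 8.22 CPM at 120 mg/dL); its intermediate progenitor and proneural list also had the highest median difference (0.449). Culture 3M held the highest Mki67 level in both groups (372 CPM in the control and 306 CPM at 120 mg/dL), the highest control Top2a level (600 CPM) and the lowest control Cdkn1a level (28.4 CPM), and its median differences stood apart for glycolysis and hypoxia (-0.806), metallothionein, zinc and iron handling (-0.235), vesicle biogenesis (-0.175) and the GABA and glutamate receptor list (0.394).

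Culture 3F stood apart at 120 mg/dL for Trf (44.4 CPM), Rpl8 (435 CPM), the share of counts on nuclear tRNA genes (0.433%) and on small nucleolar and Cajal body RNAs (0.327%), and for the median difference of all genes tested (-0.0682). In the control of culture 4F the 10 genes with most counts took 44.7% of the counts, small nucleolar and Cajal body RNAs took 0.195%, and the microglial integrin gene Itgam was at 0.169 CPM. At 120 mg/dL culture 4F alone kept a high Gm20125 level (378 CPM).

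The 76 named genes, the 38 lists with tested genes and the median of all genes were screened for a split by sex. For 6 of these items every female culture lay on one side of 0 and every male culture on the other, as the difference of 120 mg/dL minus control. With so few cultures some such splits arise by chance. How many was not worked out, so nothing was read from the count. The male mean exceeded the female mean by 0.296 for Spry2, 0.617 for Kctd16, 0.146 for the Notch list, 0.249 for the Sonic hedgehog list and 0.127 for the extracellular matrix list on the log2 scale, and the difference was -0.196 for the astrocyte markers. For the genes the dose by sex term gave an unadjusted p of 0.02783 (Spry2) and 0.1989 (Kctd16), neither past the adjusted threshold in edgeR (0.5735 and 0.6108); for the lists the difference was not tested.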

How the results depend on the processing

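The count of genes called at 120 mg/dL was 0 in edgeR with the culture block and also 0 with limma-voom, size factors of DESeq2, library totals, no filter on low counts, genes of 1 CPM or more, the 12 libraries alone, female or male cultures alone, pregnancy as the block, and no replicate block (142 genes at an unadjusted p under 0.05 without the block, against 444 with it). It was 4 with DESeq2, and 495 genes met the rule of 1 direction in all 6 cultures. At an unadjusted p under 0.05 there were 1623 of 17567 genes in female cultures alone and 410 of 17841 in male cultures alone. These counts were not compared by a test. Leaving out each culture gave 0 calls each time, with 290 to 971 genes at an unadjusted p under 0.05, highest without 3M and lowest without 5F. The dose by sex term called 2 genes in the 12 libraries alone (Amer3 and Katnal1), 3 without set 3 (Amer3, Katnal1 and Zc3h7a) and 8 with DESeq2 (Amer3, Cpb2, Gm32700, Gm39638, Gm46000, Gnb1l, Katnal1 and Zfp759). Of these, Amer3, Katnal1, Gm32700 and Gnb1l differed over 10-fold between control and 120 mg/dL in 3 or 4 cultures each. In alternatives chosen after seeing the data, the count at 320 mg/dL was 93 with DESeq2 and 0 with no replicate block, against 7. Counts at an unadjusted p and the fits without set 3 were also added after seeing the data.

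Of 1361 values of the 76 named genes under the alternatives, 1326 kept their direction and side of the threshold, 1 passed it (Gm20125 with DESeq2) and 34 changed sign, all of them genes not called; the cause was not tested. Leaving out 1 culture brought 42 of the 76 nearer 0 by over 1.5 times or past it. In male cultures alone the log2 fold change was 0.0234 for Spry1, -0.104 for H2ac10, 0.0259 for Myc, -0.00654 for Ttk, 0.0201 for Pdcd6ip, 0.0111 for Pfkp, -0.0391 for Id2, 0.0476 for Spry2, 0.00912 for Npc1, -0.0421 for Hes5, -0.133 for ND5, -0.0487 for Top2a, -0.0442 for Mt2, 0.0291 for Kctd12, 0.0134 for Aldh2, -0.047 for Pax6, -0.143 for Mt1, 0.116 for Mdm2, -0.134 for Adh5 and 0.241 for Kctd16; in female cultures alone it was 0.0378 for Nqo1, 0.0377 for Rpl8 and 0.277 for Nmi. Leaving out 1 culture at a time gave -0.265 (without 3F) to 8.54e-05 (without 5F) for Hspa5, -0.128 (5M) to 0.0143 (5F) for Kctd12, -0.026 (5F) to 0.135 (3M) for Pax6, -0.123 (3M) to 0.0081 (3F) for Mdm2, -0.0199 (3F) to 0.157 (3M) for Adh5, -0.00269 (5M) to 0.131 (3M) for Mki67, -0.164 (4M) to 0.107 (4F) for Kctd16 and -0.138 (3F) to 0.127 (3M; 0.0129 without 5M) for Nmi. Nmi was at 0.0172 without set 3, and Mki67 at -0.00764 with library totals. Of 418 list medians, 413 moved by less than 1 SD over cultures; the others were NRF2 (-0.097), cholesterol efflux (-0.0853) and the BCL2 family (-0.0422) with library totals, cholesterol efflux without set 3 (0.0258) and the BCL2 family without 3M (0.0537). Library totals moved the median of all genes by -0.0501.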
